A study of Bos taurus with 14 samples.

Results

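The miRNAs described here are 8 mature bovine miRNAs that are usually assigned to platelets, endothelium and stroma, namely bta-miR-126-5p, bta-miR-126-3p, bta-miR-199a-3p, bta-miR-199a-5p, bta-miR-199b, bta-miR-214, bta-miR-143 and bta-miR-145. They were chosen by name, and all 8 were found among the 1030 mature names of the count table, of which 614 had a count in at least 1 heifer. The samples were peripheral white blood cells (PWBC) isolated from blood that was drawn at weaning, before any breeding, from 14 Angus-Simmental crossbred heifers. Small RNA of each heifer was sequenced as 1 library. The fertile group (FH, n = 7) became pregnant to artificial insemination (AI). The subfertile group (SFH, n = 7) is labelled as not pregnant to AI, and the methods of the study class these heifers as not pregnant after AI followed by natural service. The comparison of SFH with FH asks whether miRNAs of white blood cells at weaning differ between heifers of these later outcomes.

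miR-126 is processed from an intron of EGFL7, a gene of endothelial cells, and is abundant in endothelium and platelets, where both arms of its hairpin give a mature miRNA. miR-143 and miR-145 are made from a shared primary transcript and are known from smooth muscle and fibroblasts, while miR-199a and miR-214 share a long transcript antisense to a dynamin gene and are known from mesenchymal cells. None of these miRNAs is regarded as a typical product of leukocytes, and PWBC are a mixed preparation that can hold platelets, red cells and other cells beside leukocytes.

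The total count on mature miRNAs was 1754971 to 5468341 in FH (median 3319368) and 1831960 to 3958469 in SFH (median 2663375). Levels are given as CPM, the count of a miRNA scaled to this total of its library. The upper limit for a count of 0 was set at 3 counts, equal to 0.549 CPM in the deepest library and 1.71 CPM in the shallowest. Intervals and floors given here cover counting error only, since PCR copies of a molecule were not separated.

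miRNAs of white blood cells were abundant in every library. The 8 entries of the leukocyte list (miR-223, miR-142, miR-150, miR-155, miR-146a, miR-181a and miR-342) were counted in every heifer, and their summed level was 89373 CPM in SFH heifer 21, 137637 CPM at the median and 187097 CPM in SFH heifer 30. miR-150, a miRNA of mature lymphocytes, was its most abundant entry, with a mean of 65405 CPM. The 8 miRNAs described here summed to 197 to 349 CPM in FH (median 280.2) and to 178 to 608 CPM in SFH (median 372), so they were a small part of each library. miR-143 alone made up 32.1% to 84.6% of this sum, with a median of 70.4%.

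The levels of the 8 miRNAs fell in a clear order at the top and in no clear order below. miR-143 ranked 123 of the 1030 mature names by its mean level and stood above miR-126-3p in all 14 heifers. miR-126-3p (rank 206), miR-199a-3p (rank 212) and miR-145 (rank 230) had medians of 33.0, 27.8 and 19.0 CPM. Their order was not the same in every heifer, since miR-126-3p exceeded miR-199a-3p in 9 heifers and miR-199a-3p exceeded miR-145 in 10. miR-126-5p (rank 312, median 3.18 CPM) was below miR-145 in 12 heifers. The remaining miRNAs, miR-199b, miR-199a-5p and miR-214, had a median of 0. These are counts of different small RNAs within a library and do not give the ratio of molecules.

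Detection separated the 8 miRNAs into 3 kinds. miR-126-3p and miR-143 had counts in all 14 heifers. miR-145 and miR-199a-3p were counted in 13, each missing in 1 FH heifer, and miR-126-5p was counted in 11. miR-199b had counts in 5 heifers, and miR-199a-5p and miR-214 had counts in 3 each. miRNAs with at least 1 CPM in at least 7 heifers were tested between the groups, which kept 341 miRNAs and 5 of the 8 described here. miR-199a-5p, miR-199b and miR-214 did not reach this level.

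**Figure D1:**
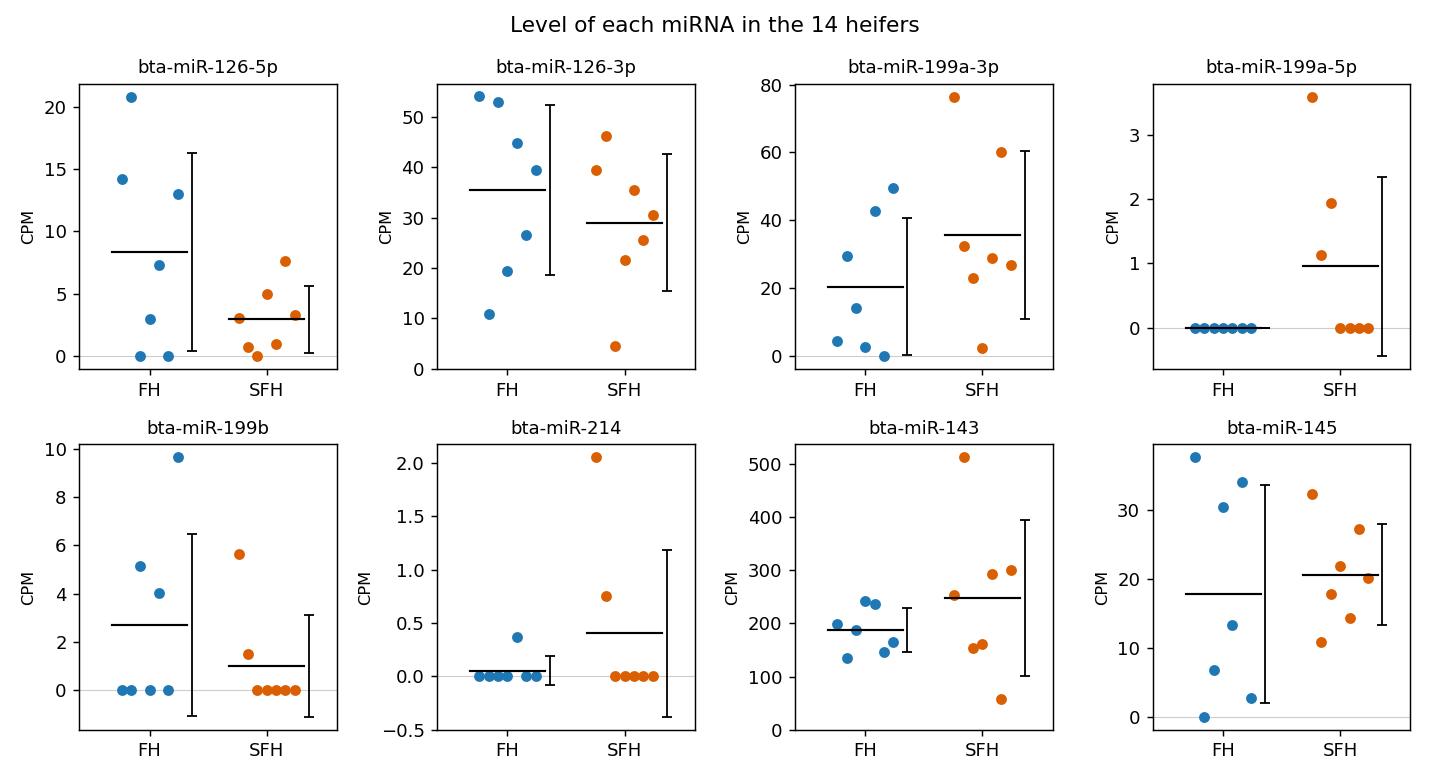
Level of each of the 8 miRNAs in CPM (vertical axes, linear, 1 scale per panel) in the 7 FH and 7 SFH heifers, with 1 point per heifer, a horizontal line at the group mean and a bar of 1 SD to either side of it. The groups overlap for miR-126-5p, miR-126-3p, miR-199a-3p, miR-143 and miR-145, and most heifers are at 0 for miR-199a-5p, miR-199b and miR-214.

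None of the 5 tested miRNAs passed both thresholds of the study's methods (a p no higher than 0.05 together with a log2 fold change of 0.5 or more in either direction) in the quasi-likelihood test of edgeR. Over all 341 miRNAs 13 passed, which is 3.81%, with 5 higher and 8 lower in SFH. With limma-voom the split was 15 higher and 8 lower. Without FH heifer 24 the edgeR count was 22. After Benjamini-Hochberg adjustment edgeR called 0 of 341 miRNAs, DESeq2 called 2 and limma-voom 0, and none of these calls was among the 8. At an unadjusted p of at most 0.05, edgeR had 20 miRNAs and 0 of the 5, and the exact permutation test had 21 of 341 (6.16%) and 0 of the 5. The median log2 fold change of the 5 was 0.07, and that of all 341 was 0.06. In bulk samples such as these, fewer cells of a type and less RNA per cell cannot be told apart.

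The 3p arm of miR-126 was counted at a low level in every library. In FH its level was 10.9 CPM at the lowest, 39.5 at the median and 54.1 at the highest, and in SFH it was 4.52, 30.6 and 46.2 CPM. The groups overlapped almost fully, with the lowest level in SFH heifer 23 (14 counts) and the next lowest in FH heifer 22 (20 counts). The mean was 35.5 ± 16.8 CPM (SD, n = 7) in FH and 29.0 ± 13.6 CPM (SD, n = 7) in SFH. The log2 fold change of SFH relative to FH was −0.35 (SE 0.55, edgeR adjusted p = 0.963), and the difference in the mean log2 level was −0.42 (exact two-sided permutation test, p = 0.467). Without SFH heifer 23 the log2 fold change was −0.16.

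The 5p arm of miR-126 was rarer and less even. It ranged from 0 to 20.8 CPM in FH with a median of 7.31, and from 0 to 7.58 CPM in SFH with a median of 3.08. The 3 highest levels were in FH heifers 22, 20 and 31, but FH also held heifers 24 and 29 with no count, and SFH heifer 23 had none either. The mean was 8.32 ± 7.96 CPM (SD, n = 7) in FH and 2.95 ± 2.68 CPM (SD, n = 7) in SFH. The log2 fold change was −1.47 with an SE of 1.24 (edgeR adjusted p = 0.947), and the difference in the mean log2 level was −0.83 (exact permutation p = 0.429). The difference was not larger than the spread between heifers.

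The arm ratio compares both products of the miR-126 hairpin within a library and does not depend on library scaling. Over all heifers 227 counts came from the 5p arm and 1359 from the 3p arm, so the 5p arm held 14.3% of both. In FH the share of the 5p arm was 0% at the lowest, 14.0% at the median and 65.5% at the highest, and in SFH it was 0%, 7.23% and 22.9%. FH heifer 22 stood alone as the heifer with more 5p than 3p counts, 38 against 20 (Wilson 95% interval of the share 52.7% to 76.4%). At the other end, FH heifer 29 had 0 counts of 5p beside 120 of 3p, which allows a share of up to 3.10% by the Wilson interval, and FH heifer 24 had 0 beside 93, which allows 3.97%. These intervals do not overlap with those of FH heifers 20 and 31, whose shares were 20.8% (15.1% to 27.9%) and 24.7% (18.9% to 31.6%).

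**Figure D2:**
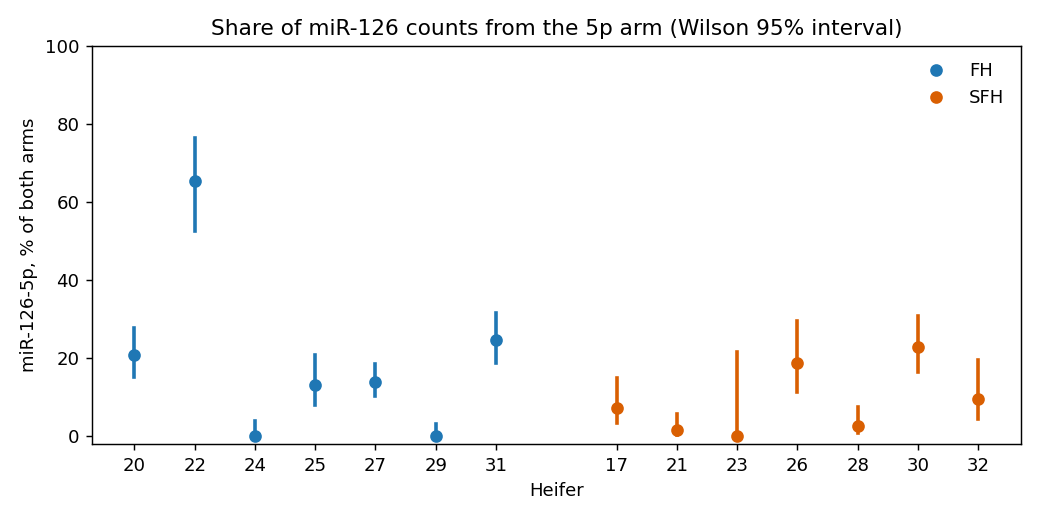
Share of the 5p arm in the miR-126 counts of each heifer, in percent of both arms (vertical axis), with 1 point per heifer and its Wilson 95% interval as a line, for FH and SFH heifers by number (horizontal axis). FH heifer 22 lies at 65.5%, and the other 13 heifers lie between 0% and 24.7%.

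Between the groups the arm ratio did not separate. The mean log2 ratio of 5p to 3p, with 0.5 counts added to each, was −3.33 ± 3.23 (SD, n = 7) in FH and −3.71 ± 1.50 (SD, n = 7) in SFH. The difference of −0.37 lay within this spread (exact two-sided permutation test, p = 0.782, adjusted over 5 ratios 0.968). Without FH heifer 22 its sign turned, to 0.33 (exact permutation p = 0.789). The SD of the log2 ratio over the 14 heifers was 2.43, which ranked 13 of the 31 hairpin names with both arms tested (median 2.19, range 0.42 to 4.21). The rarer arm had 227 counts in all for miR-126, beside a median of 683 over these names. It had 274 for miR-2483, with the highest SD, and 207549 for miR-151, with the lowest. The part of low counts in the SD was not tested. One arm was the higher in every heifer for 16 of these 31 names, and miR-126 was not among them. Of the 31 names, miR-23b and miR-10174 had identical values, so the same reads may be counted under both.

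No relation between the levels of both arms across heifers was detected. Pearson's r of their log2 levels (TMM-normalized CPM + 0.5) was 0.10 over the 14 heifers (permutation p = 0.750, adjusted p = 0.982), and Spearman's rho was 0.00 (permutation p = 1). Heifers 24, 29 and 23, all without a count of the 5p arm, were equally the farthest from its median. Without heifers 24 and 29 r was 0.33, and without SFH heifer 23 it was −0.37. Within FH r was −0.30 (exact permutation p = 0.548), and 0.11 without heifer 22. Within SFH r was 0.49 (exact permutation p = 0.256), and −0.83 without heifer 23, in which both arms were lowest, while rho within SFH was −0.18 (p = 0.713 by the same exact test). Adjusted p-values of correlations are over 2716 pairs of one of the 8 miRNAs with another miRNA.

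miR-143 was the most abundant of the 8. In FH it was 136 CPM at the lowest, 187 at the median and 242 at the highest, and in SFH it was 57.1, 254.4 and 514 CPM. SFH held both the lowest heifer (30) and the 4 highest (21, 32, 28 and 17), so that the FH range lay inside the SFH range. The mean was 187 ± 41.7 CPM (SD, n = 7) in FH and 248 ± 146 CPM (SD, n = 7) in SFH. The log2 fold change was 0.33 (SE 0.35, edgeR adjusted p = 0.947), and the difference in the mean log2 level was 0.11 (exact permutation p = 0.800). With limma-voom the log2 fold change was slightly below 0 (−0.00951), and without SFH heifer 21 the edgeR value was 0.03. The biological coefficient of variation that edgeR estimated for miR-143 was 0.488, below the median of 0.660 over the 341 miRNAs.

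miR-145, its partner in the shared transcript, was about an order of magnitude lower. It was 0, 13.3 and 37.7 CPM in FH (lowest, median, highest) and 10.9, 20.2 and 32.3 CPM in SFH. The FH heifers held both extremes, with heifers 22 (0 counts), 31 (9 counts) and 24 (12 counts) below every SFH heifer and heifers 20 and 29 above them all. The mean was 17.9 ± 15.9 CPM (SD, n = 7) in FH and 20.7 ± 7.37 CPM (SD, n = 7) in SFH. The log2 fold change was 0.07 (SE 0.81, edgeR adjusted p = 0.977). The difference in the mean log2 level was larger, at 1.01 (exact permutation p = 0.321), and limma-voom gave a log2 fold change of 0.89. The sign of the edgeR fold change turned when any of FH heifers 22, 24 and 31 or SFH heifers 17 and 30 was left out (down to −0.15).

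The ratio of miR-143 to miR-145 varied widely although both come from one transcript. Over all heifers there were 9109 counts of miR-143 and 870 of miR-145, and miR-143 held 67.7% of both in SFH heifer 30 (Wilson 95% interval 62.5% to 72.5%), 91.6% at the median and 100% in FH heifer 22 (98.5% to 100%). miR-143 was the higher in all 14 heifers. The mean log2 ratio was 4.45 ± 2.40 (SD, n = 7) in FH and 3.39 ± 1.40 (SD, n = 7) in SFH, a difference of −1.05 within the spread (exact two-sided permutation test, p = 0.358, adjusted over 5 ratios 0.686). Without FH heifer 22, in which miR-145 had no count, the difference was −0.30.

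No relation of the levels of miR-143 and miR-145 was detected over the 14 heifers, with r = 0.12 (permutation p = 0.644, adjusted p = 0.969) and rho = 0.08 (permutation p = 0.783). Without heifers 30 and 21, the farthest from the median of miR-143, r was 0.53. Within FH r was 0.76 (exact permutation p = 0.0510), while rho was 0.54 (p = 0.236 by the same exact test). Without heifer 22, in which miR-145 had no count, the FH value of r was 0.45. Within SFH r was −0.67 (exact permutation p = 0.0994), while rho was −0.64 (p = 0.139 by the same exact test). Without heifer 21 the SFH value of r was −0.45. The difference between the groups in this relation was not tested.

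**Figure D3:**
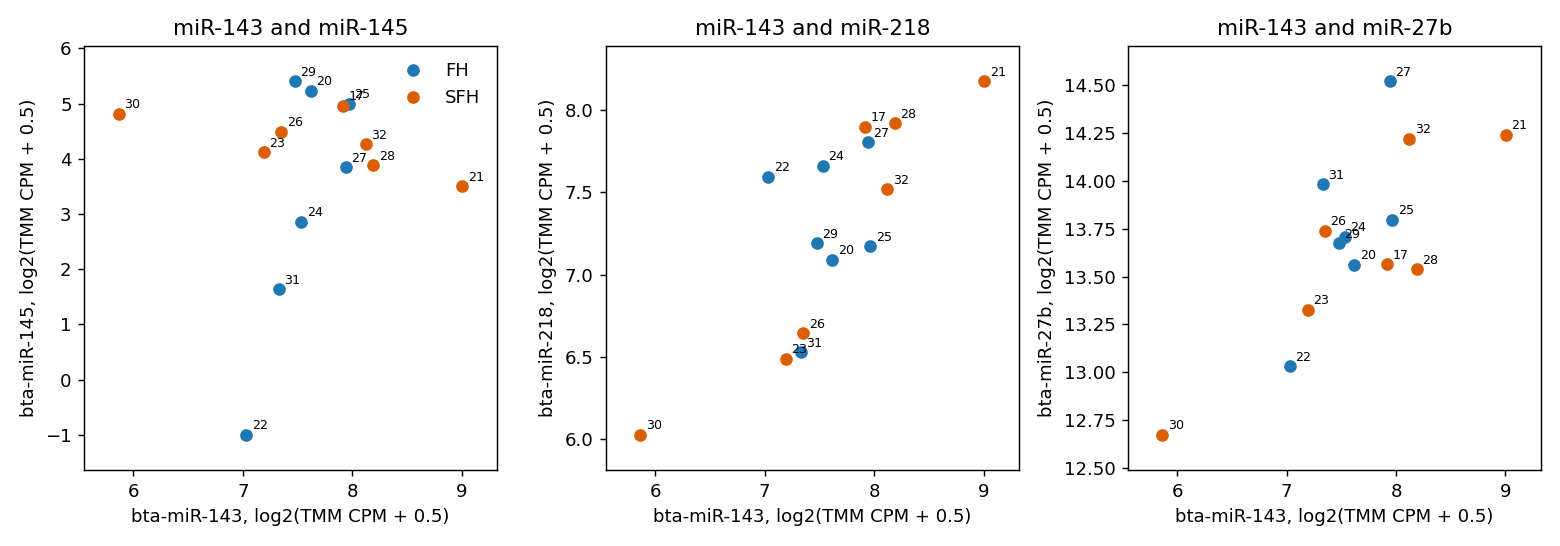
Log2 level of miR-145, miR-218 and miR-27b (vertical axes, log2 of TMM-normalized CPM + 0.5) against that of miR-143 (horizontal axes, same unit), with 1 point per heifer, numbered and coloured by group. miR-218 and miR-27b are low in SFH heifer 30 and high in SFH heifer 21 as miR-143 is, whereas miR-145 has its lowest value in FH heifer 22.

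The miRNAs most like miR-143 across heifers were miR-218, miR-27b and miR-30d. miR-218 and miR-27b are also in the list of stromal or smooth muscle miRNAs, and miR-30d is not. This list was chosen with earlier results of these data known. Pearson's r with miR-218 was 0.80 (permutation p = 0.000260, adjusted p = 0.177) and rho was 0.73 (permutation p = 0.00397), with r = 0.60 without heifers 30 and 21. Within FH this r was 0.17, and within SFH it was 0.93. For miR-27b r was 0.77 (permutation p = 0.00174, adjusted p = 0.580) and rho 0.60 (permutation p = 0.0276), with r = 0.54 without heifers 30 and 21 (permutation p = 0.0678), 0.72 within FH and 0.89 within SFH. For miR-30d r was 0.70 (permutation p = 0.00540, adjusted p = 0.611) and rho 0.65 (permutation p = 0.0142), with r = 0.51 without the same heifers. None of the 3 passed the adjustment over all pairs, and each was smaller without heifers 30 and 21.

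miR-199a-3p was the most abundant product of its family. It was 0, 14.2 and 49.4 CPM in FH (lowest, median, highest) and 2.30, 28.9 and 76.4 CPM in SFH. The 2 highest levels were in SFH heifers 17 and 30, FH heifers 29, 25 and 20 and SFH heifer 26 were below 5 CPM, and the groups overlapped between. The mean was 20.4 ± 20.2 CPM (SD, n = 7) in FH and 35.7 ± 24.7 CPM (SD, n = 7) in SFH. The log2 fold change was 0.78 (SE 0.88, edgeR adjusted p = 0.947). The difference in the mean log2 level was larger, at 1.42 (exact permutation p = 0.219), and limma-voom gave a log2 fold change of 1.78. Its counts were identical in all 14 heifers to those of bta-miR-199c, in 3 of the 4 entries of that name, so the same reads may be listed under both names and the level of either alone is uncertain.

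The spread of miR-199a-3p was wide. The SD of its log2 level was 2.08, rank 51 of 341, beside ranks of 99 for miR-126-5p (1.86), 122 for miR-145 (1.71), 165 for miR-126-3p (0.96) and 193 for miR-143 (0.71). Heifers with no count enter at the added 0.5 CPM, which were 1 for miR-199a-3p, 3 for miR-126-5p and 1 for miR-145. miR-126-3p and miR-143 had no such heifer. The part of these values in the SD was not tested. Apart from bta-miR-199c (r = 1 by its identical counts), the miRNAs most like miR-199a-3p were miR-19b and miR-1291. With miR-19b r was 0.88 (permutation p = 9.00e-05, adjusted p = 0.0815) and rho 0.64 (permutation p = 0.0172), with r = 0.73 without heifers 29 and 26. With miR-1291 r was 0.77 (permutation p = 0.00249, adjusted p = 0.580) and rho 0.50 (permutation p = 0.0708), with r = 0.74 without the same heifers.

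The other products of the miR-199 and miR-214 genes had no count in most heifers. miR-199a-5p had 7, 3 and 6 counts in SFH heifers 17, 21 and 23 (3.59, 1.13 and 1.94 CPM) and 0 in the other 11 heifers, FH included. miR-199b had 9, 22 and 32 counts in FH heifers 24, 27 and 31 and 11 and 4 counts in SFH heifers 17 and 21, and 0 in 9 heifers. miR-214 had 2 counts in FH heifer 27 and 4 and 2 counts in SFH heifers 17 and 21, and 0 in 11. The group means of miR-199a-5p and miR-214 were at or under the floor of 3 counts, so no fold between groups is given for them, nor for miR-199b with its 9 heifers at 0. A fit without a filter on low counts called 126 of 614 miRNAs (20.5%), miR-199a-5p among them, and the fold change fitted there depends on the prior count because every FH heifer was at 0. With counts in 3 heifers, the smallest p that an exact permutation test can give is 0.192, so this test could not pass 0.05 for miR-199a-5p and miR-214 whatever their levels. For miR-199b, with counts in 5 heifers, the exact permutation test of the log2 level gave p = 0.486.

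These rare miRNAs were counted in 6 of the 14 heifers. SFH heifers 17 and 21 had counts of all 3, FH heifer 27 had counts of miR-199b and miR-214, and FH heifers 24 and 31 (miR-199b) and SFH heifer 23 (miR-199a-5p) had counts of 1. The 2 SFH heifers with counts of all 3 were also the only heifers of the 14 with counts of all 8 miRNAs described here, and FH heifer 29 had the fewest, with 3. The total counts of heifers 17 and 21 (1949378 and 2663375) were not among the highest.

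Ratios within this group were set mostly by zeros. miR-199a-3p had 1187 counts over all heifers, miR-199a-5p had 16 and miR-214 had 8. The mean log2 ratio of miR-199a-5p to miR-199a-3p was −5.53 ± 2.98 (SD, n = 7) in FH and −5.59 ± 2.09 (SD, n = 7) in SFH (exact permutation p = 0.968). The difference ranged from −0.61 to 0.86 when 1 heifer was left out. The mean log2 ratio of miR-199a-3p to miR-214 was 5.20 ± 2.66 (SD, n = 7) in FH and 6.29 ± 1.77 (SD, n = 7) in SFH (exact permutation p = 0.411, adjusted over 5 ratios 0.686). This difference was 1.09, and 0.23 without FH heifer 29, which had no count of either. The mean log2 ratio of miR-199b to miR-199a-5p was 2.25 ± 2.86 (SD, n = 7) in FH and −0.39 ± 1.48 (SD, n = 7) in SFH, and this difference of −2.64 had an exact permutation p of 0.122 (adjusted over 5 ratios 0.612). The unadjusted p was 0.0490 by the same test without any 1 of FH heifers 20, 22, 25 and 29. Where neither miRNA had a count, this last ratio is 0 by the added pseudocount alone.

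Among the 5 tested miRNAs no pair moved together past the test. Over the 10 pairs of the 5 tested miRNAs r ranged from −0.38 to 0.38 with a median of 0.06, and 6 pairs were above 0. None of the 10 had an unadjusted permutation p of at most 0.05, and none had r above 0.5, a value that 6.20% of all 57970 pairs of tested miRNAs exceeded. With group means removed, 1 of the 10 passed an unadjusted p of 0.05, miR-199a-3p with miR-145 (r = −0.55). By rho within a group, this pair in FH (−0.79) and miR-126-3p with miR-143 in SFH (0.79) had an exact permutation p of 0.0480 each, unadjusted. The highest r of the 10 was between miR-143 and miR-126-3p (0.38, permutation p = 0.182, adjusted p = 0.888, rho 0.41 with permutation p = 0.146, and r = 0.31 without heifers 23 and 22). Of the 18 pairs with a rare miRNA, miR-199a-5p with miR-214 had r = 0.75 (permutation p = 0.0128, adjusted p = 0.658, rho 0.63 with permutation p = 0.0232) and miR-199b with miR-214 had r = 0.53 (permutation p = 0.0403, adjusted p = 0.739, rho 0.59 with permutation p = 0.0237). Without the 2 heifers farthest from the median these r values were 0.84 and 0.58, and they describe the few heifers with counts. By Spearman's rho, 3 more of these pairs had an unadjusted permutation p of at most 0.05 and an adjusted p above it: miR-199b with miR-126-3p (rho 0.60, permutation p = 0.0257), miR-199b with miR-199a-3p (rho 0.56, permutation p = 0.0419) and miR-214 with miR-199a-3p (rho 0.55, permutation p = 0.0434). Of the 10 pairs, the lowest r was between miR-199a-3p and miR-145 (−0.38, permutation p = 0.163, adjusted p = 0.876, rho −0.39 with permutation p = 0.165, and r = −0.24 without heifers 29 and 26). No relation of the 5 levels with the log2 total count of the library was detected either, with r between −0.23 and 0.35 (adjusted permutation p = 0.990 for each, over the 341 miRNAs tested), rho between −0.12 and 0.30, and r between −0.32 and 0.35 when the 2 heifers with the most distant totals were left out.

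The other miRNAs most like each of these were a mixed set. For miR-126-5p they were miR-339a, miR-339b (both r = 0.71, adjusted p = 0.580) and miR-1296 (r = 0.65, adjusted p = 0.633). For miR-126-3p they were miR-2285bl and miR-2285co, which had the same r of 0.75 (adjusted p = 0.580), and miR-450b (r = 0.72, adjusted p = 0.658). miR-2285bl and miR-2285co also had the same log2 fold change and SE, so the same reads may be listed under both names. miR-339a and miR-339b had nearly the same log2 fold change (0.0901 and 0.0902) and SE (0.2205 and 0.2207). Many of their reads may likewise be listed under both names. For miR-145 they were miR-196b (r = 0.71, adjusted p = 0.739), miR-652 (r = 0.69, adjusted p = 0.580) and miR-3431 (r = 0.67, adjusted p = 0.739). Without heifers 22 and 31, the farthest from the median of miR-145, these r values were −0.07, 0.28 and 0.13, so they rest on those heifers. Spearman's rho was 0.65, 0.65 and 0.69 for the set of miR-126-5p (permutation p = 0.0152, 0.0152 and 0.00763), 0.64, 0.64 and 0.52 for that of miR-126-3p (permutation p = 0.0156, 0.0156 and 0.0594) and 0.18, 0.50 and 0.38 for that of miR-145 (permutation p = 0.532, 0.0717 and 0.177). Without heifers 24 and 29, 2 of the 3 heifers with no count of miR-126-5p, r was 0.60, 0.60 and 0.48 for the first set. Without heifers 23 and 22, the farthest from the median of miR-126-3p, r was 0.53, 0.53 and 0.49 for the second.

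Lists of miRNAs of other cell types give the setting of these levels. Of the platelet-abundant miRNAs that leukocytes share (9 entries), 8 were tested and 0 passed both thresholds in either direction. Their summed level was 113291 to 151959 CPM, with miR-21-5p as the most abundant entry (mean 58101 CPM). Of the endothelial list other than miR-126 (7 entries), 6 were tested and 0 passed, with a sum of 11478 to 20772 CPM led by miR-221 (mean 9537 CPM). Of the stromal or smooth muscle list other than the 8 (11 entries), 9 were tested and 0 passed, with a sum of 14012 CPM in SFH heifer 30 to 36354 CPM in FH heifer 27 led by miR-27b (mean 13851 CPM), and miR-503-3p was at 0 in every heifer. These lists hold miRNAs that leukocytes also make.

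The lists of red cells, striated muscle, epithelium and liver varied more between heifers. The red cell list (3 entries, 2 tested, 0 past both thresholds) was led by miR-451 (mean 1904 CPM), had miR-144 at 0 in every heifer, and summed to 1462 CPM in SFH heifer 26 and to 9234 CPM in SFH heifer 30. The striated muscle list (7 entries, 2 tested, 0 past both thresholds) was led by miR-499 (mean 33.0 CPM), had miR-208a and miR-208b at 0, and summed to 6.03 CPM in FH heifer 31 and to 347 CPM in SFH heifer 21. The epithelial list (7 entries, 2 tested, 0 past both thresholds) was led by miR-375 (mean 2662 CPM), had miR-429 at 0, and summed to 1224 to 5035 CPM. By mean level, miR-375 made up 93.8% of this sum. Counts over all heifers were 7597 for miR-200c, 32 for miR-200b, 19 for miR-141, 3 for miR-205 and 1 for miR-200a. miR-122, the marker of liver, was at 0 to 4.65 CPM. All 8 leukocyte entries were tested, and 0 passed.

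No relation of the 5 tested miRNAs described here with the sums of these lists passed the adjustment for multiple tests. Over the 14 heifers r of miR-143 with the log2 sum of the stromal or smooth muscle list was 0.75 (permutation p = 0.00157, adjusted p = 0.231) and rho was 0.69 (permutation p = 0.00709), with r = 0.81 within FH, 0.82 within SFH and 0.45 once the 2 heifers with the most distant sums were left out. With the leukocyte list r was −0.73 (permutation p = 0.00278, adjusted p = 0.284) and rho −0.63 (permutation p = 0.0178), with r = −0.66 within FH, −0.82 within SFH and −0.61 with the 2 most distant heifers left out. Adjusted p-values are over 2350 relations of a tested miRNA with 1 of 7 lists, of which 35 involve the miRNAs described here. By mean level, miR-27b made up 52.7% of the stromal or smooth muscle list. The relation of miR-143 with this list therefore partly repeats its relation with miR-27b, and the list was chosen with earlier results known. miR-126-5p had a negative r with the platelet-abundant list (−0.46, permutation p = 0.0961, adjusted p = 0.678, rho −0.56 with permutation p = 0.0406, and r = −0.52 with the 2 most distant heifers left out). miR-126-3p had a negative r with the endothelial list (−0.48, permutation p = 0.0781, adjusted p = 0.644, rho −0.14 with permutation p = 0.626), which became 0.26 with the 2 most distant heifers left out. miR-199a-3p with the red cell list had r = 0.42 (permutation p = 0.139, adjusted p = 0.694), rho = 0.60 (permutation p = 0.0248) and r = 0.20 with the 2 most distant heifers left out. CPM are shares of a total, so the sums and the levels of single miRNAs are not fully independent. The leukocyte sum ran from 89373 to 187097 CPM, and miR-143 ran from 57.1 to 514 CPM. The part of this dependence in their r was not tested. SFH heifer 21, the highest in miR-143, had the highest striated muscle sum and the lowest leukocyte sum, and SFH heifer 30, the lowest in miR-143, had the lowest stromal and the highest red cell and leukocyte sums. The part of these cell types in the levels of miR-143 was not tested.

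In the RefSeq annotation of the ARS-UCD2.0 assembly, a later one than the files use, MIR126 overlaps EGFL7, and MIR143 and MIR145 are adjacent genes that overlap the same long non-coding RNA. MIR199A-1 and MIR214 overlap DNM3 and a shared long non-coding RNA, MIR199A-2 overlaps DNM2 and MIR199B overlaps DNM1, while MIR199C overlaps NUP88. The miR-126 arms, and miR-143 with miR-145, share a gene or transcript and were unequal in their summed counts. miR-199a-3p and miR-214 were unequal as well. Of the miR-199a genes only MIR199A-1 shares a transcript with MIR214, and the 3 entries of miR-199a-3p had identical counts. The counts of miR-199a-3p and miR-214 are therefore not a comparison within 1 transcript.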

How the data were processed

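PWBC small RNA of 14 heifers was analysed, 1 library per heifer, which is the replicate. The authors trimmed adapters and 4 bases at either end, aligned reads to ARS-UCD1.2 and miRBase 22.1 with miRDeep2, and deposited the raw count of each mature miRNA and precursor entry. The deposited CPM table holds the 341 miRNAs with at least 1 CPM in at least 7 heifers, and its CPM values equal the counts scaled to the total over these 341 in all 14 heifers. Of 1207 entries, the one with the highest total was kept per mature name. Counts were scaled by TMM and fitted with edgeR 4.0.16 in R 4.3.3, without covariates, with DESeq2 1.42.0 and limma 3.58.1 as alternatives. Groups were compared by exact two-sided permutation of the heifers, enumerated in full, on log2(TMM-normalized CPM + 0.5), and correlations used 100000 permutations (exact within groups), in Python 3.11.15 with numpy 2.4.6 and scipy 1.17.1. The scripts were tested on simulated data. Named miRNAs are the 8, for each of the 5 tested the 3 tested miRNAs with the highest Pearson's r, and of each marker list the most abundant entry and the entries at 0. Of the epithelial list the other entries are named too. The same neighbours of the 3 untested miRNAs are in the closing section. The labels name no batch. The 8 miRNAs and the lists were chosen with earlier results of these data known. Other scalings, filters, tools, pseudocounts and left-out heifers were tried as alternatives.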

Additional observations from a re-analysis of the deposited data

Results flagged for a closer look

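In 7 of 46 groups of 7 heifers, the highest or lowest value stood apart from the rest of its group, where chance gives about 1 in 20. That rate does not hold for groups mostly at 0, so the number of such groups is not read against it. miR-199b was 5.64 CPM (11 counts) in SFH heifer 17, with SFH heifer 21 next at 4 counts and the other 5 SFH heifers at 0. miR-214 was 2.05 CPM (4 counts) in SFH heifer 17 and 0.366 CPM (2 counts) in FH heifer 27, the FH heifer that alone had any. The log2 ratio of miR-199b to miR-199a-5p was −3.70 in SFH heifer 23, where miR-199a-5p had 6 counts and miR-199b had none. These 4 values rest on 11 counts or fewer.

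The sum of the red cell list was 9234 CPM in SFH heifer 30, more than any other SFH heifer. The sum of the striated muscle list was 347 CPM in SFH heifer 21 and 139 CPM in FH heifer 20, above the other heifers of their groups. Heifers 30 and 21 were also the lowest and the highest in miR-143. Without SFH heifer 21, r of miR-143 with miR-218 was 0.75 in place of 0.80, and r with the striated muscle sum, an alternative chosen after seeing the data, was 0.01 in place of 0.37. Without SFH heifer 30 these r values were 0.69 and 0.60. The r of miR-143 with the red cell sum was −0.38, and 0.28 without SFH heifer 30.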

How the results depend on the processing

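The number of miRNAs past both thresholds was 13 of 341 with edgeR, 16 with DESeq2 (5 higher and 11 lower), 23 with limma-voom, 126 of 614 (20.5%) without a filter on low counts, and 11 to 22 when 1 heifer was left out. It was 22 without FH heifer 24 and 20 without SFH heifer 26. The split of 5 higher and 8 lower became 7 and 7 with upper-quartile factors or library totals, 15 and 8 with limma-voom, and 81 and 45 without a filter. The number among the 8 was 0 in all fits but the one without a filter, where it was 1 of 8, miR-199a-5p (edgeR adjusted p = 0.142). Its fitted fold change is not given, since it depends on the prior count because all FH heifers were at 0. The log2 fold change of miR-143 was −0.00951 with limma-voom. When 1 heifer was left out, the log2 fold change ranged from −0.15 to 0.38 for miR-145, from 0.03 (without SFH heifer 21) to 0.50 for miR-143, from −0.51 to −0.16 (without SFH heifer 23) for miR-126-3p, from −1.94 to −1.08 for miR-126-5p and from 0.49 to 1.15 for miR-199a-3p. The difference in the log2 ratio ranged from −1.14 to 0.33 for the miR-126 arms, from −0.61 to 0.86 for miR-199a-5p to miR-199a-3p, from −1.45 to −0.30 for miR-143 to miR-145 (−0.30 without FH heifer 22), from 0.23 to 1.62 for miR-199a-3p to miR-214 (0.23 without FH heifer 29), and from −3.02 to −2.01 for miR-199b to miR-199a-5p. The last had an exact permutation p of 0.0490 without any 1 of FH heifers 20, 22, 25 and 29, which had no counts of either. The correlation of the miR-126 arms was 0.00 by Spearman's rho (−0.00221), −0.30 within FH and −0.37 to 0.32 with 1 heifer left out (−0.37 without SFH heifer 23). That of miR-143 with miR-145 was −0.67 within SFH and −0.13 to 0.34 with 1 heifer left out (−0.13 without FH heifer 22). The number of the 10 pairs with an unadjusted permutation p of at most 0.05 was 0, and 1 with group means removed (miR-199a-3p with miR-145, r = −0.55). The cause of these changes was not tested. The other alternatives kept the sign of the fold changes and log2 differences of the 5 tested miRNAs and of the ratios, and no p of these fold changes or differences was at most 0.05. The size of the fold changes crossed 0.5 in some of them: miR-126-3p was −0.52 with limma-voom and −0.51 without FH heifer 22 or SFH heifer 21, miR-143 was 0.502 without SFH heifer 30, and miR-199a-3p was 0.49 without SFH heifer 17. With limma-voom, miR-145 was 0.89, miR-199a-3p 1.78 and miR-126-5p −0.82. With at least 10 counts in every heifer, only miR-126-3p and miR-143 of the 5 were tested. An arm ratio without a pseudocount was not run, since miR-126-5p had no count in 3 heifers. Depth limits what can be said of miR-199a-5p, miR-199b and miR-214, whose counts were at most 32 in a heifer.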

Other observations

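The tested miRNAs most like the rare ones follow their few positive heifers. For miR-199a-5p they were miR-17-5p (r = 0.77, permutation p = 0.00310, adjusted p = 0.580, rho 0.68 with permutation p = 0.00689), miR-379 (r = 0.69, permutation p = 0.00603, adjusted p = 0.633, rho 0.72 with permutation p = 0.00300) and miR-380-3p (r = 0.63, permutation p = 0.00355, adjusted p = 0.580, rho 0.69 with permutation p = 0.00604). Without SFH heifers 17 and 23 these r values were 0.41, 0.66 and 0.42. For miR-199b they were miR-2411-5p (r = 0.81, permutation p = 0.000910, adjusted p = 0.471, rho 0.84 with permutation p = 0.000780), miR-2285ak-5p (r = 0.69, adjusted p = 0.633, rho 0.65 with permutation p = 0.0133) and miR-2285f (r = 0.68, adjusted p = 0.633, rho 0.62 with permutation p = 0.0221). Without heifers 31 and 17 these r values were 0.79, 0.56 and 0.69. For miR-214 they were miR-425-5p (r = 0.64, adjusted p = 0.658, rho 0.70 with permutation p = 0.00479), miR-151-3p (r = 0.64, adjusted p = 0.687, rho 0.68 with permutation p = 0.00719) and miR-421 (r = 0.61, adjusted p = 0.687, rho 0.59 with permutation p = 0.0274). Without SFH heifers 17 and 21 these r values were 0.58, 0.20 and 0.26. With 3 or 5 heifers above 0, each of these is a description of those heifers.

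miR-199a-3p had its most negative relation with miR-191, named after its values were seen. miR-191 is abundant in blood cells and is in the platelet-abundant list. Pearson's r was −0.87 (permutation p = 7.00e-05, adjusted p = 0.0815) and rho −0.75 (permutation p = 0.00288), with r = −0.81 without heifers 29 and 26, −0.95 within FH and −0.61 within SFH. This was, with miR-19b, the smallest adjusted p among the pairs of the 8 miRNAs other than the pair of identical counts, and neither passed 0.05. The sum of the whole platelet-abundant list had a positive r with miR-199a-3p (0.39, permutation p = 0.171, adjusted p = 0.732, rho 0.28).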
